A study of Mus musculus with 6 samples.

Results

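The nuclear-encoded subunits of the respiratory chain were followed in mouse regulatory T cells (Treg), a CD4 T cell lineage defined by the transcription factor Foxp3 that holds immune responses in check. Members were chosen by symbol: mouse genes whose names begin with Ndufa, Ndufb, Ndufc, Ndufs, Ndufv, Uqcr, Cox4i, Cox5, Cox6, Cox7, Cox8 or Atp5, with Sdha, Sdhb, Sdhc and Sdhd. Assembly factors and genes named as pseudogenes or as predicted genes were left out. This gave 89 of the 37991 genes counted. By the GENCODE M21 annotation 85 were protein coding and 4 were processed pseudogenes (Ndufa11b, Ndufb4c, Ndufs6b and Cox6c2). Complexes were assigned by symbol. This placed 39 members in complex I, 4 in complex II, 8 in complex III, 21 in complex IV and 17 in complex V. Ndufa4 and Ndufa4l2 were placed in complex IV, where the Ndufa4 protein is now known to sit.

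The RNA came from spleen CD4+ T cells purified with a bead kit and then sorted as YFP+. Of the 6 libraries, 3 were labelled wild type and KAP1 sufficient, and 3 were labelled KAP1 deficient. KAP1, the protein of the Trim28 gene, represses transcription at sites to which KRAB zinc finger proteins recruit it. The labels give C57BL/6 as the strain of the sufficient libraries and of deficient replicate 1, C57BL/7 for deficient replicate 2 and C57BL/8 for deficient replicate 3. They name no Cre driver, no floxed allele, no age, and no source of the YFP. They also do not say whether replicates were separate animals, so every p-value reflects the spread among these libraries alone, and that spread may be technical.

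Complex I takes electrons from NADH and complex II takes them from succinate. Both pass them to ubiquinone, complex III passes them to cytochrome c, and complex IV passes them to oxygen. Complexes I, III and IV pump protons across the inner mitochondrial membrane, and complex V, the ATP synthase, uses the gradient to make ATP. Most subunits are encoded in the nucleus and a few core subunits in mitochondrial DNA, and complex II is wholly nuclear encoded. Treg are known for a greater reliance on oxidative phosphorylation than conventional effector T cells.

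Libraries held 9954344 to 10994745 counts, and levels are given as CPM, the count scaled to a common library total. A count of 0 allows up to 3 counts, which was 0.273 to 0.301 CPM in these libraries. Trim28, on chromosome 7, went against the label in the libraries labelled sufficient replicate 3 and deficient replicate 3. It stood at 244, 244 and 21.2 CPM in sufficient replicates 1, 2 and 3 and at 23.0, 18.6 and 231 CPM in deficient replicates 1, 2 and 3. Results are therefore given for all 6 libraries as labelled and for the 4 libraries that leave out both replicates 3. In the 4 libraries, which were chosen by it, Trim28 had a log2 fold change of -3.54 ± 0.08 (SE; adjusted p from edgeR = 2.74e-13). With all 6 its log2 fold change was -0.90 ± 1.46 (adjusted p = 0.889). The listed Treg and CD4 T markers were Foxp3, Il2ra, Ctla4, Cd4 and Cd3e. They summed to 3166 to 3499 CPM in the sufficient and 3191 to 3232 CPM in the deficient libraries. Foxp3 alone stood at 747, 697 and 621 CPM in the sufficient and 614, 596 and 612 CPM in the deficient libraries. Markers of B cells summed to 15.4 to 27.6 and 16.0 to 23.0 CPM, of dendritic cells to 29.2 to 38.0 and 27.4 to 29.4 CPM, of myeloid cells to 5.44 to 6.53 and 4.73 to 8.14 CPM, and of natural killer and CD8 T cells to 30.6 to 37.0 and 32.3 to 37.4 CPM. The defining markers Itgax, Siglech, Ncr1, Alas2, Pf4 and Ppbp were at 0 in all libraries.

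The subunit genes made up 0.541% to 0.576% of all counts. For their length, complex I genes had the lowest median level, and the order of the other complexes depended on the length used. On the scale of CPM per kilobase of 1 principal transcript, the median over tested members was 42.2 for complex I, 63.6 for complex II, 67.0 for complex III, 95.6 for complex IV and 98.7 for complex V. Atp5b, the catalytic beta subunit of the ATP synthase, had the highest level, with a mean of 343 CPM per kb over the 6 libraries. It held 635, 650 and 683 CPM in the sufficient and 658, 675 and 644 CPM in the deficient libraries. The highest levels in the other complexes were those of Cox4i1 at 240, Uqcrh, the hinge protein of complex III, at 195, Ndufa6 at 112 and Sdha, the flavoprotein of complex II, at 90.8 CPM per kb. The lowest tested members were Atp5g1 at 0.848, Ndufb2 at 3.42, Sdhc at 15.9, Cox5b at 16.4 and Uqcrq at 25.0 CPM per kb. The transcripts used for Atp5g1 and Ndufb2 were 4715 and 4371 bases long. In mean CPM, without a length, Ndufb2 at 14.9 was above Ndufs5 at 3.26 and Ndufb4 at 4.44. With the union of all exons as the length, the medians were 25.8, 44.5, 41.8, 51.1 and 29.2 CPM per kb for complexes I to V, so that complex V went from the highest to below complexes II, III and IV. Ndufa1 then led complex I and Atp5a1 led complex V, and Ndufb4 and Uqcrb took the lowest places of complexes I and III.

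**Figure D1:**
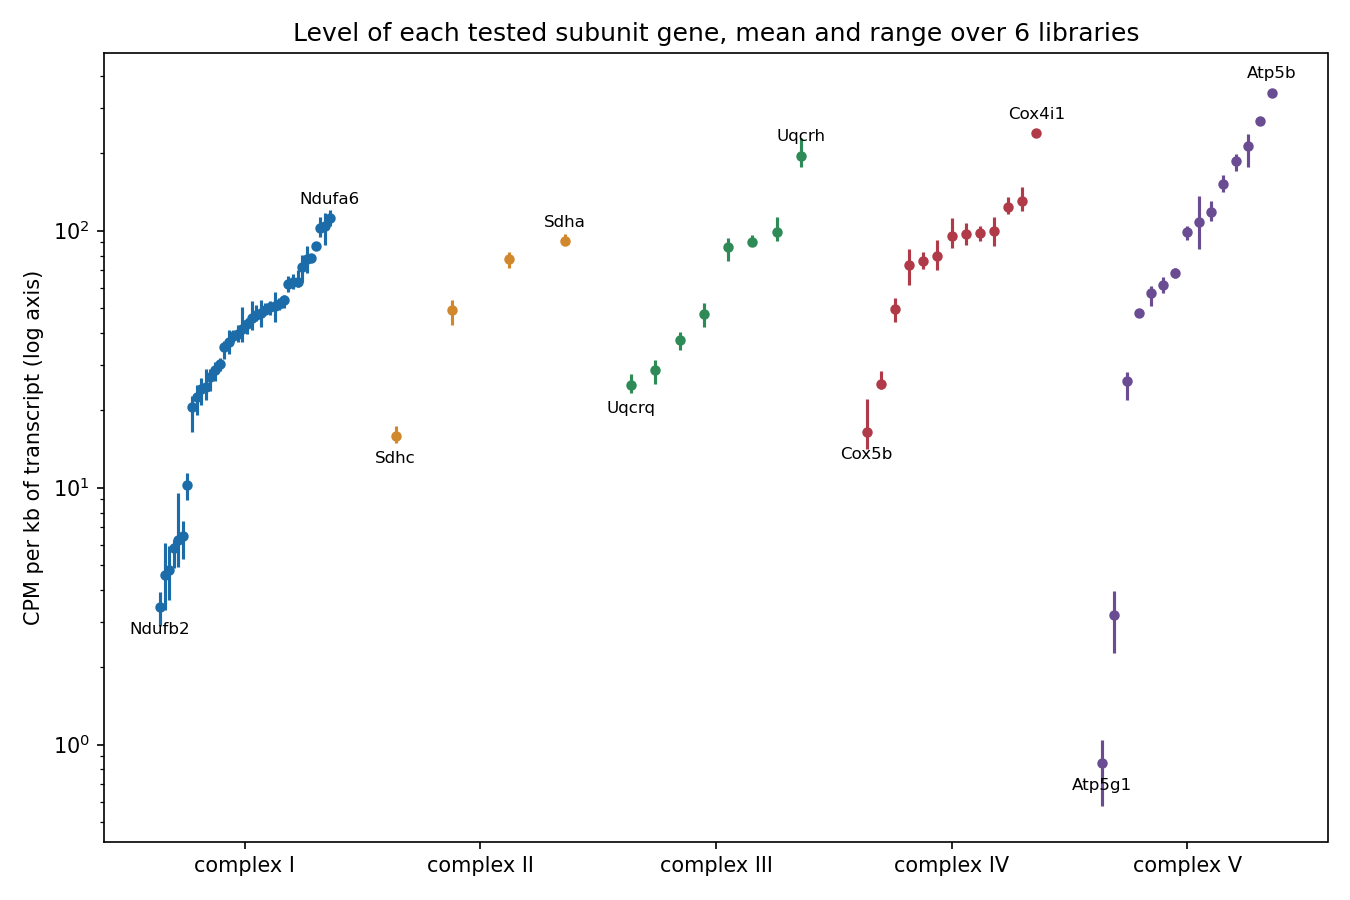
Level of each of the 78 subunit genes tested with all 6 libraries, in CPM per kilobase of transcript on a log axis, by complex. Points are means over 6 libraries and lines run from the lowest to the highest library; levels within a complex spread far more widely than any gene does across libraries, from 0.848 (Atp5g1) to 343 (Atp5b) in complex V.

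Complex IV has subunits with a general form and a form known from heart, muscle, lung or testis. In these Treg the general forms carried nearly all the counts. Cox4i1 stood at 184 ± 4.97 CPM in the sufficient and 182 ± 4.89 CPM in the deficient libraries (SD, n = 3 each), and its partner Cox4i2 had 1 count in all 6 libraries together. Cox6a1 stood at 78.4 ± 5.90 CPM in the sufficient libraries and Cox6a2 at 0 counts in every library. Cox6b1 stood at 76.6 ± 3.53 CPM there, against 2 to 11 counts per library for Cox6b2. Cox7a1, the heart and muscle form, had 1 to 3 counts per library, and Cox7a2 had 409 to 616. Cox7b2, Cox8b, Cox8c and Ndufa4l2 were at 0 counts in all libraries, while Cox7b stood at a mean of 48.7 and Ndufa4 of 60.2 CPM in the sufficient libraries. In all, 5 of these 8 alternative forms were at 0 in every library and 7 had at most 3 counts in any library. None had enough counts for the edgeR fits, so these fits could not compare them between the groups. In the authors' deposited table Cox6b2 alone of the 8 had an adjusted p, and it did not pass.

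The 3 genes for subunit c, the ring-forming subunit of the ATP synthase through which protons flow, differed widely in counts. Atp5g3 (chromosome 2, 73908447 to 73911326, mm10) had 1229 to 1549 counts per library, Atp5g1 (chromosome 11, 96068852 to 96075670) 28 to 50 and Atp5g2 4 to 7. Atp5l, which encodes subunit g of the ATP synthase, also had few counts, 4 to 12 per library. How far such a count can be read depends on how much of the transcript occurs in another gene, since the sources used here do not say how reads with several positions were counted. Each coding member's transcript was therefore split into all its 50-base stretches, and those also present in a transcript of another gene were counted. This length was chosen after the counts were seen. None was shared in 38 of the 85 coding members, and 47 shared at least 1 stretch. Over 50% was shared in Atp5g2 (87.4%), Atp5l (84.8%), Cox7c (53.0%), Atp5h (50.5%) and Atp5o (50.3%, with a second annotated Atp5o model). The coding sequences below show both ends of this range, because they carry the contrast within the family. They are read from the GENCODE M21 transcripts and printed 5′ to 3′ for the first 200 bases of each, with capitals marking bases that lie in no 50-base stretch shared with another gene.
Atp5g3: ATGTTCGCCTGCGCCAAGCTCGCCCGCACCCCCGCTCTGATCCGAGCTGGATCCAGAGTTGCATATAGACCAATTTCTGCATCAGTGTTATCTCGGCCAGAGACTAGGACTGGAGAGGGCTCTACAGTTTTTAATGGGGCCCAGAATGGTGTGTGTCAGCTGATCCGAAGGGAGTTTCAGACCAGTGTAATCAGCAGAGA
Atp5g2: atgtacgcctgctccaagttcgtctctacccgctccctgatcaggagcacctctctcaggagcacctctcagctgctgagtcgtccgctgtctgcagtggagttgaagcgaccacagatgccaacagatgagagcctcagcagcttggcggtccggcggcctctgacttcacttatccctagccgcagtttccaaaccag
Atp5l: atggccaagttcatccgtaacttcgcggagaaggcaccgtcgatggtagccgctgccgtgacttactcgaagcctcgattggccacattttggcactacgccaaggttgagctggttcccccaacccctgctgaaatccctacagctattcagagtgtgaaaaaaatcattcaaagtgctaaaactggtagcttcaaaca
Over the whole coding sequence, all 426 bases of Atp5g3 were in capitals, and 0 of the 441 bases of Atp5g2 and 0 of the 312 bases of Atp5l were. The low values of Atp5g2 and Atp5l are therefore uncertain as levels of these genes. Atp5g1, with 28 to 50 counts, shared 11.6% of its stretches, and the part of shared sequence in these counts was not tested.

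**Figure D2:**
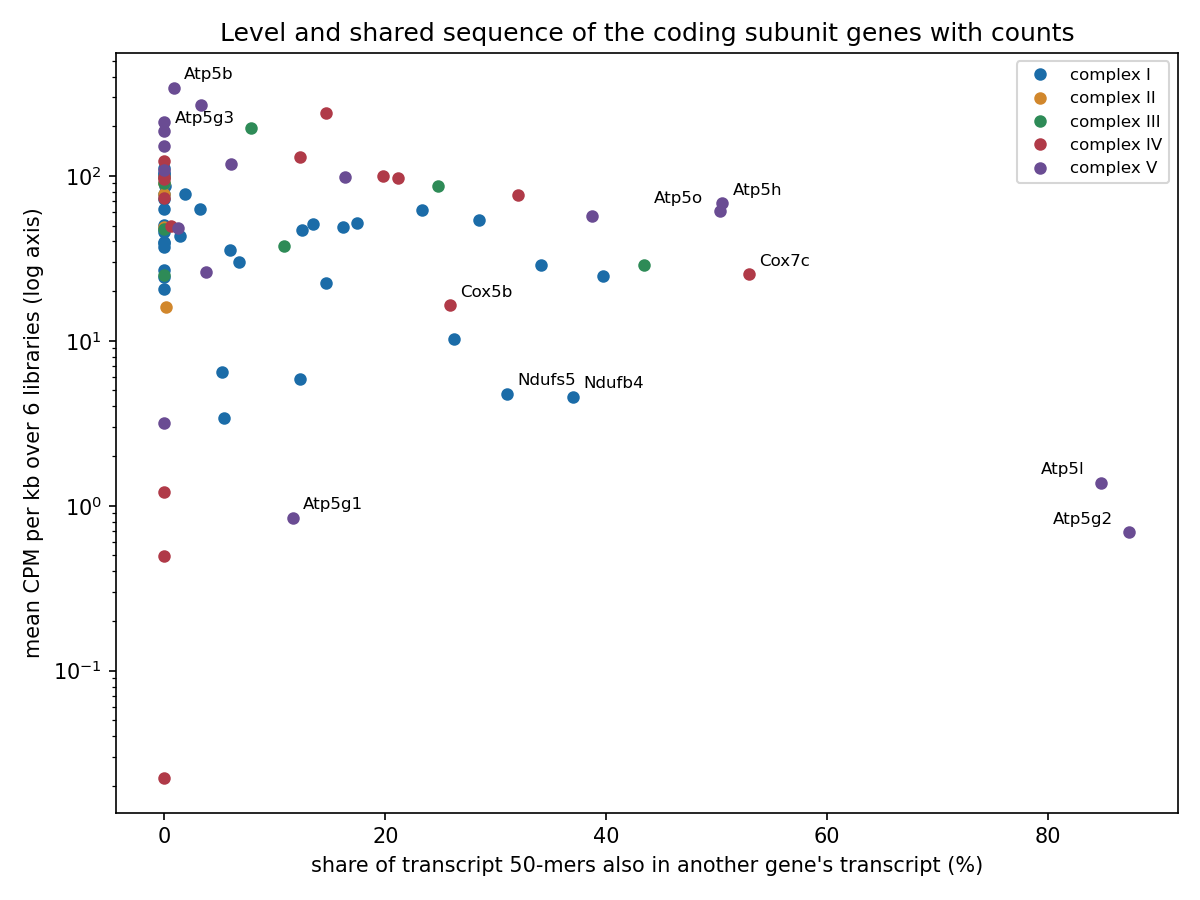
Share of each coding subunit gene's 50-base stretches that also occur in another gene's transcript (horizontal axis, percent) against its mean CPM per kb over 6 libraries (vertical, log axis), coloured by complex. The points of Atp5g2 (87.4%) and Atp5l (84.8%) lie alone at the lower right; genes with no counts are not drawn.

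With all 6 libraries as labelled, no subunit gene passed the edgeR test at an adjusted p under 0.05. This was 0 of the 78 members with enough counts to be tested, the other 11 having too few, and 0.0165% of all 12158 tested genes passed (0.00823% higher and 0.00823% lower). The smallest adjusted p among members was 0.632. At an unadjusted p under 0.05 there were 10 members, 9 higher and 1 lower in the deficient group, against 7.76% of all tested genes; DESeq2 called 0 members and gave 2 at an unadjusted p under 0.05. Log2 fold changes, deficient minus sufficient, ran from -0.33 to 0.29 with a median of 0.006, and the median of all tested genes was -0.004. They were positive in 41 members and negative in 37, and positive in 48.8% of all tested genes. In 51 of the 78 members the 95% interval lay within a 1.25-fold change either way, as it did in 46.3% of all tested genes, and in 72 members it lay within 1.5-fold. Under these labels the data thus limit the difference for most subunit genes to less than 1.25-fold. They do not show that the groups were alike. Each labelled group mixed high and low Trim28, so this sets no limit on a difference by Trim28 level.

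Summed over each complex, the levels of the groups overlapped in complexes I, II, IV and V and not in complex III. Complex I genes summed to 1563 ± 23.7 CPM in the sufficient and 1556 ± 29.3 CPM in the deficient libraries (SD, n = 3 each), complex II to 461 ± 21.3 and 465 ± 4.96 CPM, complex IV to 789 ± 18.7 and 805 ± 27.4 CPM, and complex V to 2155 ± 55.2 and 2201 ± 34.6 CPM. Complex III genes summed to 552, 593 and 587 CPM in the sufficient and 599, 654 and 603 CPM in the deficient libraries. The deficient libraries were thus the higher 3 for complex III, by a margin of 593 to 599 CPM at the nearest pair. The complex III sums leave out the gene of cytochrome c1, a subunit whose symbol was not among those selected. An exact permutation test of 3 against 3 cannot go below p = 0.10, and none was run on these sums.

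**Figure D3:**
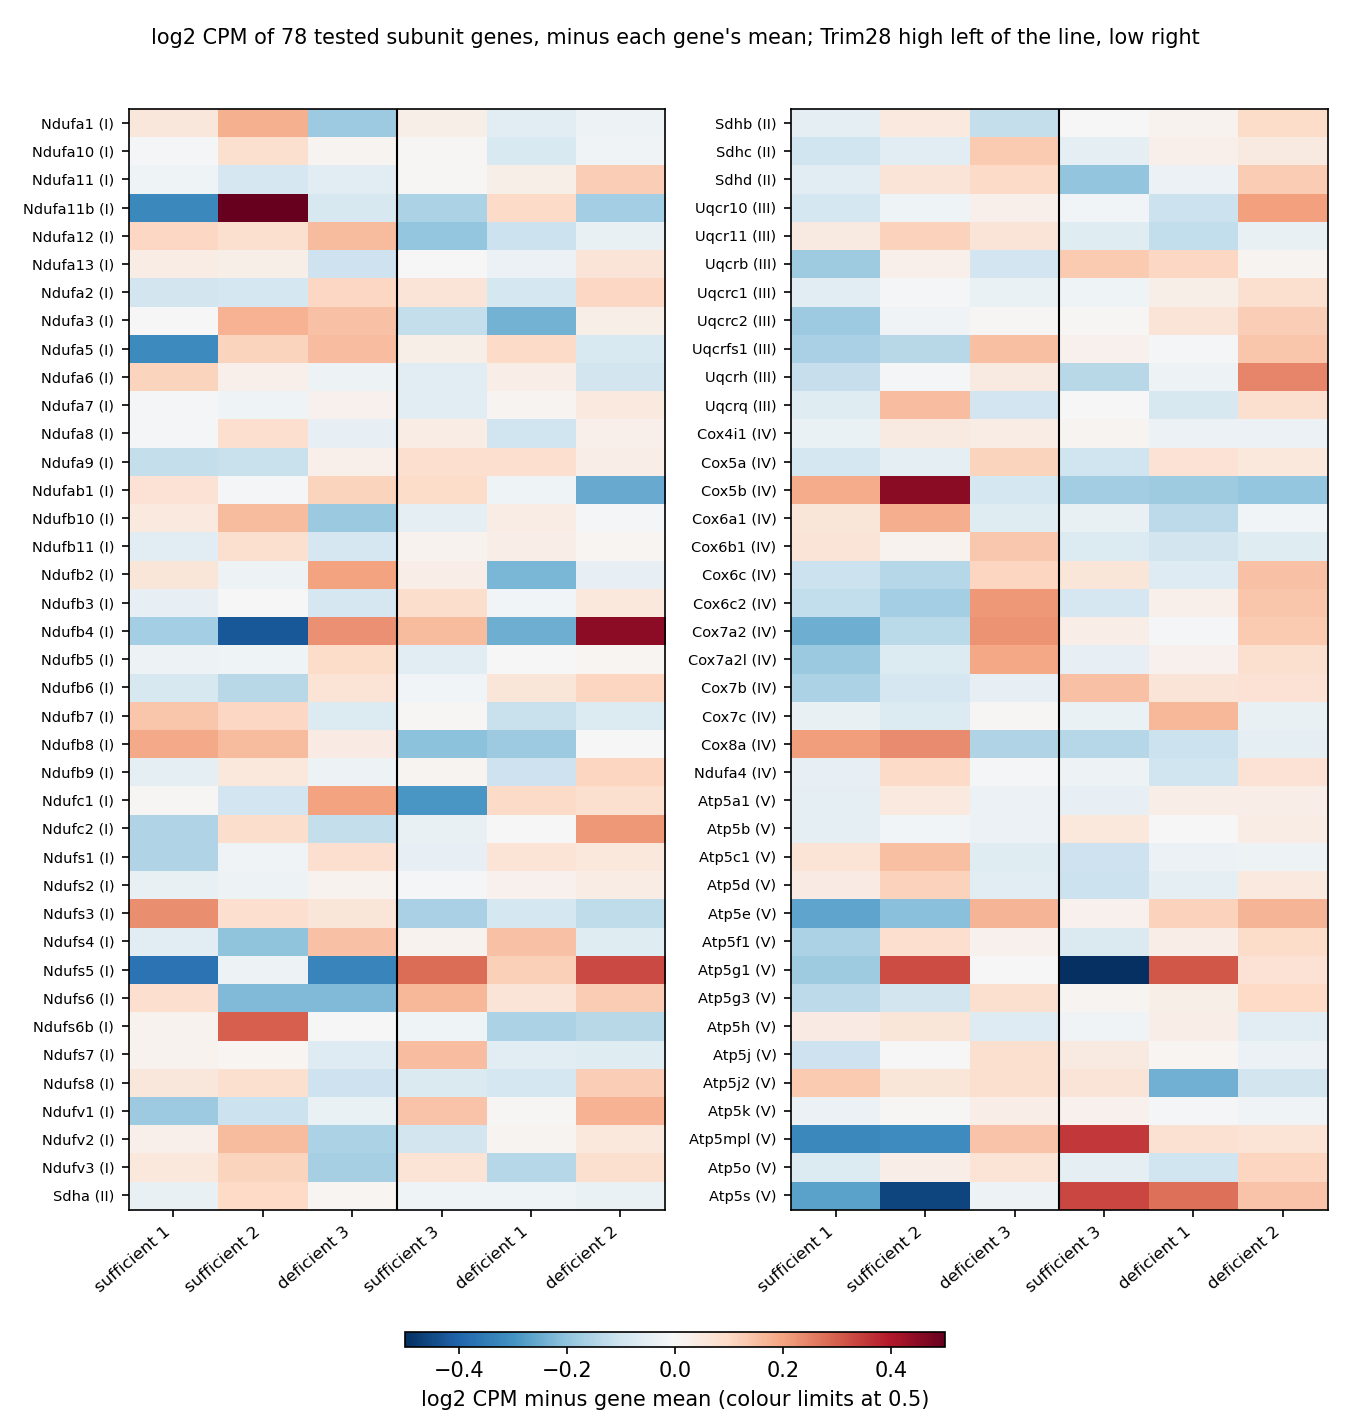
Log2 CPM of each of the 78 tested subunit genes in each library, minus the gene's mean over 6 libraries; red is above and blue below the mean, with colour limits at 0.5. Libraries with high Trim28 stand left of the line and those with low Trim28 right of it, and most genes stay near their mean in all 6 libraries.

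Single members with the smallest p in each complex, taken with all 6 libraries, showed small differences that did not pass. Ndufb7, an accessory subunit of complex I, stood at 70.3, 68.7 and 64.1 CPM in the sufficient and 59.1, 60.9 and 60.8 CPM in the deficient libraries, a log2 fold change of -0.17 ± 0.06 (SE, edgeR adjusted p = 0.632). The groups did not overlap. Sdhc, a membrane anchor of complex II, stood at 47.1, 48.6 and 48.7 against 51.3, 52.0 and 55.3 CPM (0.13 ± 0.06, adjusted p = 0.649), again without overlap. Uqcrfs1, the Rieske iron-sulfur protein of complex III, stood at 57.6, 58.4 and 65.4 against 63.9, 70.8 and 71.5 CPM (0.18 ± 0.07, adjusted p = 0.632), and here the groups overlapped. Cox7a2l, placed in complex IV by its symbol, stood at 93.9, 102 and 104 against 108, 113 and 122 CPM, with no overlap. Its log2 fold change was 0.19 ± 0.07 (edgeR adjusted p = 0.632). Counted over all members, the groups as labelled did not overlap in 15 of 78, 12 higher and 3 lower in the deficient libraries, against 12.8% of all tested genes (6.73% higher and 6.05% lower).

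Ordered by Trim28 level, the high libraries were sufficient replicates 1 and 2 and deficient replicate 3, and the low ones sufficient replicate 3 and deficient replicates 1 and 2. This order rests on a measured value, so it is described without a test. In 15 of 78 members the high and low libraries did not overlap, 8 higher and 7 lower where Trim28 was low, against 26.4% of all tested genes (11.9% higher and 14.5% lower). Those higher at low Trim28 were Ndufa9, Ndufa11, Ndufs5, Ndufv1, Uqcrc2, Cox7b, Atp5b and Atp5s. Those lower were Ndufa12, Ndufb8, Ndufs3, Ndufs6b, Uqcr11, Cox5b and Cox6b1. The share of members so arranged was below that of all tested genes, and no complex moved as a whole.

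In the 4 libraries in which Trim28 went with the label, 8 of 79 tested members passed, 6 higher and 2 lower in deficient cells. That is 10.1% of members, beside 17.4% of all 12183 tested genes (9.96% higher and 7.39% lower). By complex, 1 of 38 tested members was called in complex I, 0 of 4 in complex II and 1 of 8 in complex III. Complex IV had 3 of 13 and complex V 3 of 16. The share called was 2.63% in complex I, 23.1% in complex IV and 18.8% in complex V. Log2 fold changes ran from -0.50 to 0.58 with a median of 0.05, and that of all tested genes was -0.002. They were positive in 46 members and negative in 33, and positive in 49.6% of all tested genes. At an unadjusted p under 0.05 there were 13 higher and 9 lower members, 22 in all, against 30.6% of all tested genes. The median SE was 0.080 for members and 0.098 for all tested genes. The 95% interval lay within 1.25-fold either way in 38 of the 79 members, beside 39.1% of all tested genes, and within 1.5-fold in 71. Groups of 2 libraries do not overlap in 58% of all tested genes, and did not in 44 of the 79 members, so lack of overlap in the 4 libraries is not read as a result. In bulk RNA, fewer cells of a type and less RNA per cell cannot be told apart.

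**Figure D4:**
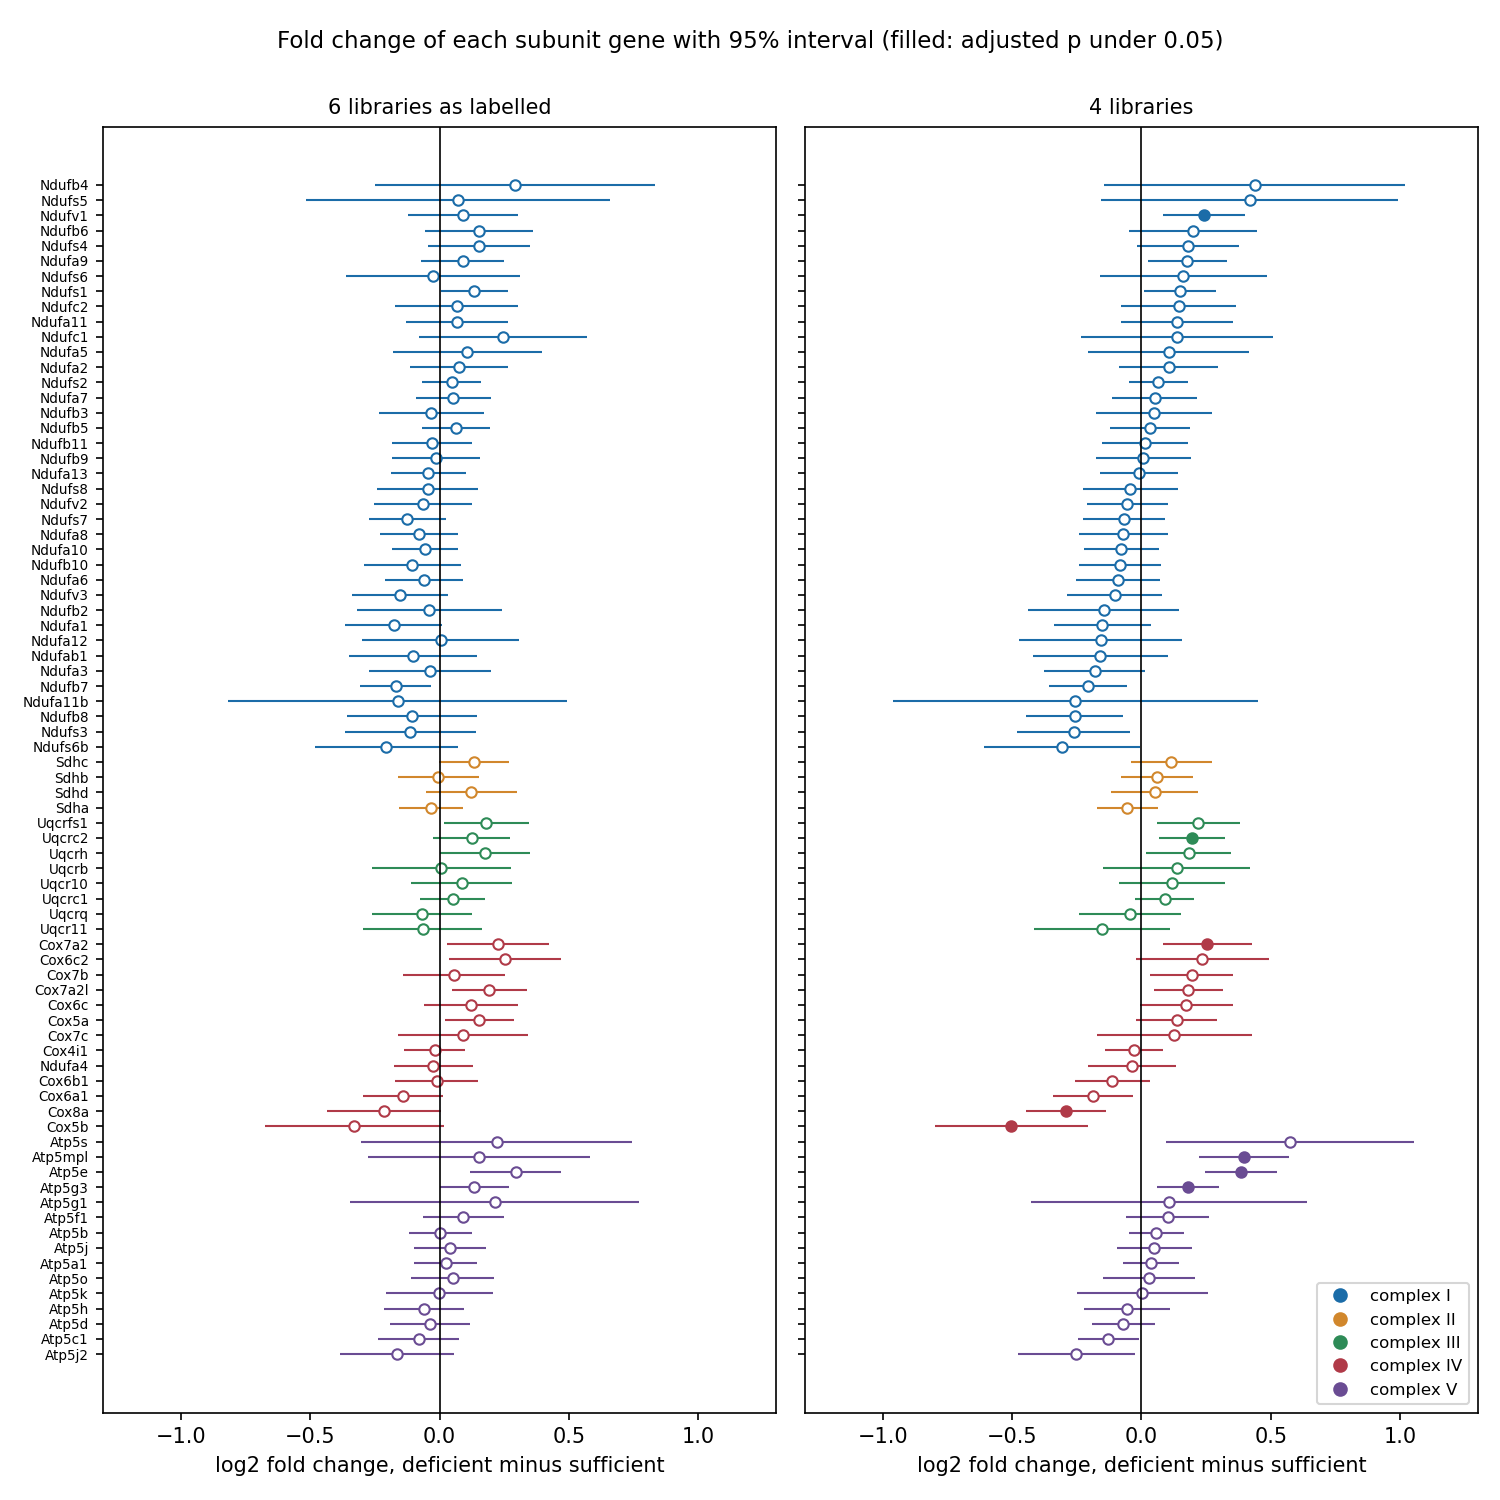
Log2 fold change (deficient minus sufficient) of the 78 subunit genes tested in both fits, with 95% intervals, for the 6 libraries as labelled (left) and for the 4 libraries (right), coloured by complex. Filled points passed at an adjusted p under 0.05: 0 on the left and 8 on the right, and most points in both panels lie close to 0.

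The 3 called genes of complex V were all higher in deficient cells. Atp5e encodes the epsilon subunit of the central stalk of the ATP synthase (chromosome 2, 174461072 to 174464105, mm10). It stood at 74.2, 77.1 and 90.6 CPM in sufficient replicates 1, 2 and 3 and at 96.5, 100.3 and 100.4 CPM in deficient replicates 1, 2 and 3. All deficient libraries were above all sufficient ones, and sufficient replicate 3 lay between. In the 4 libraries it was 1.31-fold higher, a log2 fold change of 0.38 ± 0.06 (SE, edgeR adjusted p = 0.000866), and with all 6 it was 0.29 ± 0.08 and did not pass. Atp5mpl, a small membrane-embedded subunit of the ATP synthase (chromosome 12, 111961375 to 111966977), stood at 31.2, 31.3 and 49.8 against 41.1, 40.9 and 43.1 CPM. Sufficient replicate 3 was here the highest of all libraries. The 4-library value was 1.32-fold (0.40 ± 0.08, adjusted p = 0.00353) and the 6-library value 0.15 ± 0.18. Atp5g3, the subunit c gene printed above, stood at 122, 125 and 134 against 136, 142 and 141 CPM, without overlap but with a gap of 134 to 136. Its log2 fold change was 0.18 ± 0.06 in the 4 libraries (adjusted p = 0.0388) and 0.13 ± 0.06 in all 6. Atp5g3 lost its call without any 1 of the 4 libraries, at log2 fold changes of 0.15 to 0.21. The core subunits Atp5b (0.06 ± 0.05) and Atp5a1 (0.04 ± 0.05) did not pass in the 4 libraries.

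Complex IV held called genes in both directions. Cox8a, the general form of the smallest subunit (chromosome 19, 7215153 to 7217616), stood at 60.4, 61.5 and 47.4 against 48.5, 50.6 and 47.0 CPM. Sufficient replicates 1 and 2 were above the other 4 libraries. In the 4 libraries it fell, with a log2 fold change of -0.29 ± 0.07 (adjusted p from edgeR = 0.0117), and with all 6 the value was -0.21 ± 0.10. Cox5b, a subunit that binds zinc (chromosome 1, 36691449 to 36693681), stood at 15.9, 19.2 and 12.4 against 12.4, 12.3 and 13.2 CPM, with the same libraries highest and deficient replicate 3 next. It fell by 0.50 ± 0.14 in the 4 libraries (adjusted p = 0.0212) and was -0.33 ± 0.15 in all 6. Cox5b shares 25.9% of its stretches with the predicted gene Gm11273. Gm11273 itself had 194, 218 and 158 counts in the sufficient and 159, 142 and 169 in the deficient libraries, beside 161, 195 and 128 and then 125, 122 and 145 for Cox5b. Reads could be divided between the pair, so the Cox5b value is uncertain. Cox7a2, the general partner of the muscle form Cox7a1 (chromosome 9, 79755361 to 79759878), stood at 40.5, 43.7 and 49.1 against 47.6, 52.4 and 56.0 CPM, with sufficient replicate 3 inside the deficient range. It was higher by 0.25 ± 0.08 in the 4 libraries (adjusted p = 0.0426) and the value with all 6 was 0.22 ± 0.09. Calls were lost for Cox8a without deficient replicate 1 (-0.26), for Cox5b without sufficient replicate 2 (-0.37) or deficient replicate 2 (-0.49), and for Cox7a2 without sufficient replicate 1 (0.20), sufficient replicate 2 (0.30) or deficient replicate 2 (0.19).

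Complexes I and III each held 1 called gene. Ndufv1, the subunit of complex I that binds NADH (chromosome 19, 4007384 to 4012806), stood at 69.9, 73.7 and 87.6 against 79.6, 89.6 and 77.6 CPM. Every library with low Trim28 was above every library with high Trim28. It was higher by 0.24 ± 0.07 in the 4 libraries (edgeR adjusted p = 0.0349), and the value with all 6 was 0.09 ± 0.09. Uqcrc2, a core protein of complex III (chromosome 7, 120635176 to 120659524), stood at 144, 162 and 165 against 171, 178 and 164 CPM, and sufficient replicate 3 and deficient replicate 3 were almost equal. It was higher by 0.20 ± 0.06 in the 4 libraries (adjusted p = 0.0353) and 0.12 ± 0.07 with all 6. Ndufv1 lost its call without sufficient replicate 1 (0.21), sufficient replicate 2 (0.27) or deficient replicate 2 (0.16), and Uqcrc2 without sufficient replicate 1 (0.12) or deficient replicate 2 (0.17). Just outside the threshold were Ndufb8 (adjusted p = 0.0569), Uqcrfs1 (0.0572), Cox7a2l (0.0582) and Ndufb7 (0.0589). Atp5s, placed in complex V by its symbol alone, had the highest log2 fold change, 0.58 ± 0.22, at 3.63 to 6.31 CPM. It did not pass (edgeR adjusted p = 0.0935), and its naming followed its values.

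**Figure D5:**
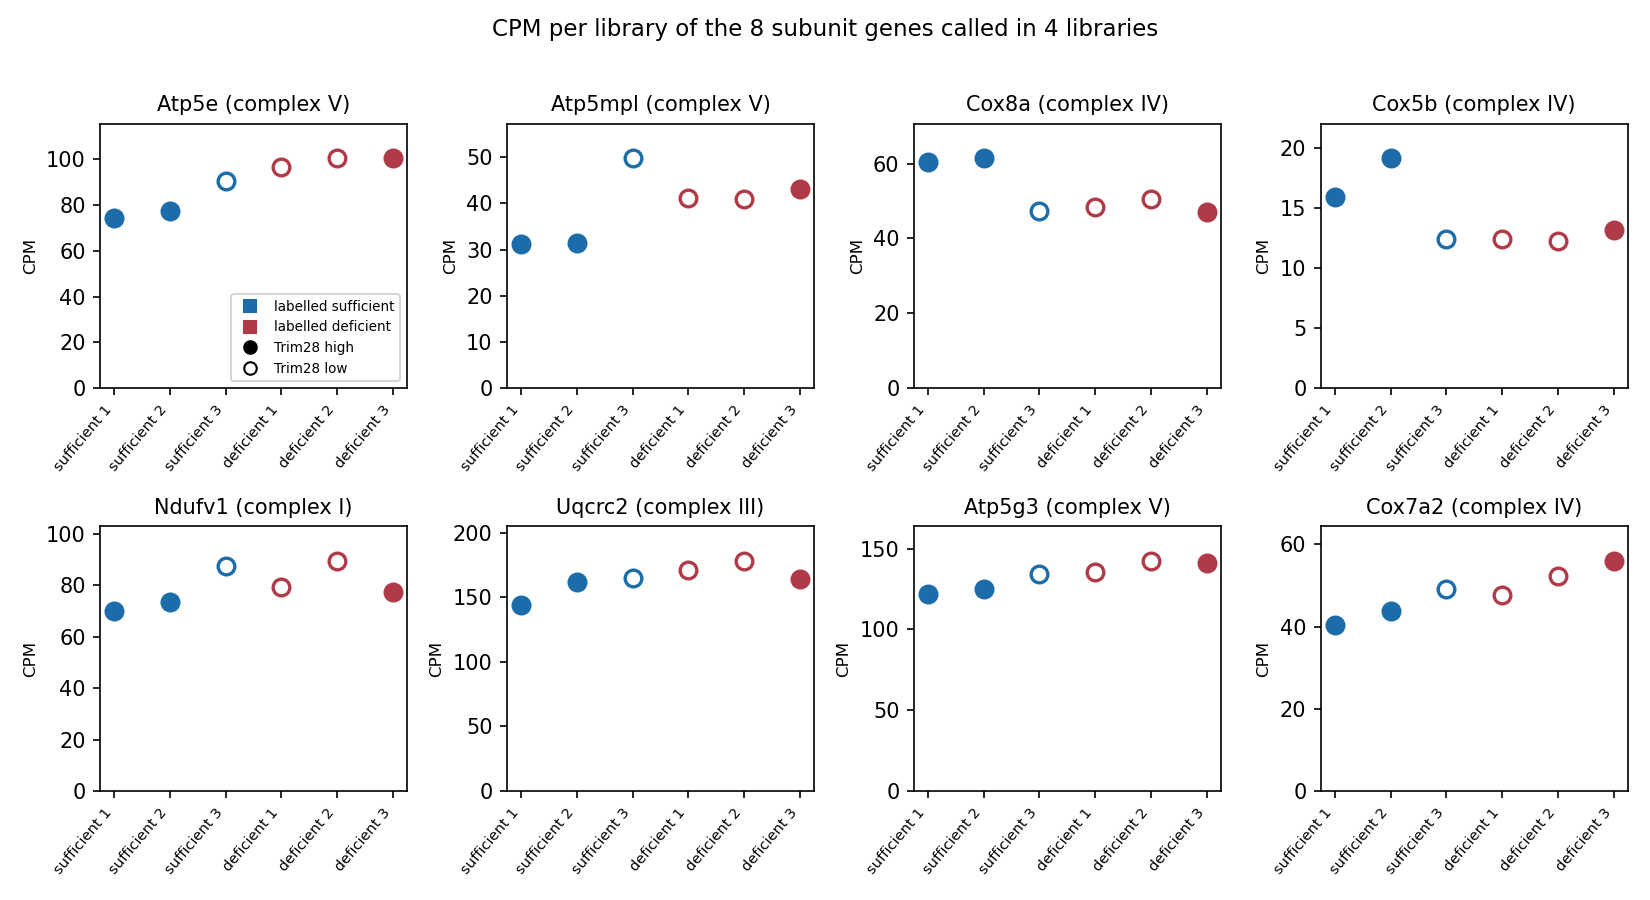
CPM in each library of the 8 subunit genes called in the 4 libraries; colour gives the label and a filled point high Trim28. In Atp5e, Atp5mpl, Cox8a and Cox5b, sufficient replicates 1 and 2 stand apart from the other 4 libraries, deficient replicate 3 with its high Trim28 among them.

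The place of the 2 libraries left out was then read for each called gene, a description added after the values were seen. In 7 of the 8 called members both sufficient replicate 3 and deficient replicate 3 were nearer, on the log2 CPM scale, to the mean of deficient replicates 1 and 2 than to that of sufficient replicates 1 and 2. Only Ndufv1 of these 8 placed each of the libraries with its Trim28 level. Over all 2114 called genes 51% placed both with deficient replicates 1 and 2, and 40.3% placed them by Trim28. Among the 79 tested members, called or not, 40.5% placed both with deficient replicates 1 and 2, beside 39.1% of all 12183 tested genes. Of the 7 called members, Cox5b and Uqcrc2 also had no overlap between libraries of high and low Trim28. Mitochondrial genes held 1.92%, 2.1% and 1.41% of counts in the sufficient and 1.34%, 1.33% and 1.61% in the deficient libraries. The 3 highest values were those of the libraries with high Trim28, deficient replicate 3 being the lowest of them. The part of this share in these results was not tested. Among marker genes, 2 of 5 tested Treg and CD4 T markers fell in the same 4 libraries (Foxp3, -0.25, and Cd4, -0.15). So did 2 of 3 B cell markers (Cd22 and Igkc) and the 1 tested dendritic marker (Cd74, -0.42). Of 3 tested natural killer and CD8 T markers Nkg7 fell and Klrb1c rose, and 0 of 2 myeloid markers passed. Their part in these results was not tested either.

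Scaling moved the calls. With upper-quartile factors in place of TMM the 4 libraries gave 2 members higher (Atp5e and Atp5mpl) and 5 lower (Cox5b, Cox6a1, Cox8a, Ndufb7 and Ndufb8), and all tested genes went from 1214 higher and 900 lower to 1046 and 1248. Atp5e kept its call under every alternative run on the 4 libraries. DESeq2 called Atp5e as the only member, where it called 5.22% of all genes. In the authors' deposited table none of the 76 members with an adjusted p was under 0.05, beside 6.87% of 12070 genes. That table gave Trim28 a log2 fold change of 3.11, positive where sufficient was higher. In edgeR, deficient minus sufficient, Trim28 had -0.90 with all 6 libraries as labelled and -3.54 with the 4. How both replicates 3 were grouped in the authors' table was not tested. Its result for the 76 members may therefore rest on other groups than the fits made here. The lowest adjusted p among members in the authors' deposited table was 0.121, that of Ndufv1.

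The promoters of Atp5e and Cox8a are shown because these members had the smallest adjusted p among those called higher and lower in the 4 libraries. Both are stretches of 200 bases free of annotated exons, from the RefSeq promoter table (GRCm38.p6), on the minus strand, at chr19:7217617-7217816 for Cox8a and chr2:174464106-174464305 for Atp5e. Capitals mark matches to any of 4 motifs on either strand: CCGGAAG (bound by ETS factors such as GABP), the NRF1 motif (a pair of GCGC parted by A and then any base), AAGATGGC (YY1) and CCAAT.
Cox8a: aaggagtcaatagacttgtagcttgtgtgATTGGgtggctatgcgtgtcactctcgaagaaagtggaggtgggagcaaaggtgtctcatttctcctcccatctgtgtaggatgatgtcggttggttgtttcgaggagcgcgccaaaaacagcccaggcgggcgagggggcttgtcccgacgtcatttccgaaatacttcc
Atp5e: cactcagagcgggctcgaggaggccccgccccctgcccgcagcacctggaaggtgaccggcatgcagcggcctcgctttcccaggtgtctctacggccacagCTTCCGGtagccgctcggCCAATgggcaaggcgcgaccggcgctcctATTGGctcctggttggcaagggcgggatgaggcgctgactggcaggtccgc
The Cox8a stretch held 1 match, to CCAAT read on the opposite strand, and the Atp5e stretch held 3, 1 to the ETS motif and 2 to CCAAT. Over windows from 250 bases before to 50 after the start, the ETS motif was found in 16 of 67 members with an entry (23.9%) and in 9.93% of 27025 genes. Cox8a and Atp5e were both among these 16 members, so the printed stretches do not set them apart by this motif. The NRF1 motif was found in 17 members (25.4%) and 5.19% of genes, and the YY1 motif in 9 (13.4%) and 3.19%. CCAAT was found in 29 members (43.3%) and 41.1% of genes. A match describes letters only, and this search was added after the counts were seen.

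Other genes of the pathway were read from lists. In the fit of all 6 libraries no member of these lists passed, and the counts that follow are from the 4 libraries, in which 17.4% of all tested genes were called. The subunits encoded in mitochondrial DNA were lower: 6 of 7 tested fell, 0 rose, and the median log2 fold change was -0.54. Cytochrome b (mt-Cytb) is an electron-carrying subunit of complex III. It stood at 5049, 5386 and 3494 CPM in the sufficient and 3232, 3238 and 3974 CPM in the deficient libraries. In the 4 libraries it fell, with a log2 fold change of -0.68 ± 0.05 (adjusted p from edgeR = 4.60e-07). Sufficient replicates 1 and 2 were the highest and deficient replicate 3 came next, so that the 3 libraries with high Trim28 stood above the 3 with low Trim28. The complex I genes mt-Nd1 (-0.75 ± 0.06), mt-Nd2 (-0.61) and mt-Nd4 (-0.50) also fell, and mt-Nd5 and mt-Co1 were the others that passed. Another 6 of these 13 genes (mt-Nd3, mt-Nd4l, mt-Co2, mt-Co3, mt-Atp6 and mt-Atp8) are listed at 0 in every library, although every cell with mitochondria uses them, so their rows give no level. The nuclear partners of the same complexes had medians of -0.00014 in complex I, 0.13 in complex III and 0.13 in complex IV, and no test of the difference between nuclear and mitochondrial subunits was made.

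Of 49 tested assembly factors, which build the complexes and are not part of them, 1 rose, 0 fell and 48 did not pass, with a median of 0.04. The one that rose was Cmc1 (0.39 ± 0.13, edgeR adjusted p = 0.0473), a factor of complex IV assembly, at 13.3, 14.3 and 14.4 against 17.7, 18.4 and 15.5 CPM. Among 13 tested regulators of mitochondrial biogenesis Yy1 rose (0.23 ± 0.06, adjusted p = 0.0129) and Pprc1, a coactivator, fell (-0.27 ± 0.06, adjusted p = 0.00653), and Ppargc1a had 0 counts in all libraries. Of 16 genes of the tricarboxylic acid cycle and its entry enzyme, Pdhb of pyruvate dehydrogenase rose (0.28 ± 0.08, adjusted p = 0.0240) and the citrate synthase gene Cs fell (-0.22 ± 0.05, adjusted p = 0.00958). None of 15 electron carrier genes, for cytochrome c, cytochrome c1 and ubiquinone synthesis, passed. Cytochrome c1 is itself a subunit of complex III, and its gene symbol was not among those selected as members. Of 7 genes that move nucleotides, phosphate or protons across the mitochondrial membranes, the phosphate carrier Slc25a3 rose (0.23 ± 0.05, adjusted p = 0.00509) and the uncoupling protein gene Ucp2 fell (-0.24 ± 0.05, adjusted p = 0.00361). The 2 of 13 biogenesis and 2 of 16 cycle genes are near the 17.4% of all tested genes. The calls of Slc25a3, Ucp2, mt-Cytb, mt-Nd1, mt-Nd2 and mt-Nd4 held without each of the 4 libraries. Those of Cmc1 (any 1 of the 4), Yy1 (deficient replicate 1, 0.21, or sufficient replicate 2, 0.19), Pprc1 (deficient replicate 1, -0.22), Pdhb (deficient replicate 2, 0.23, or sufficient replicate 1, 0.28, or 2, 0.27) and Cs (deficient replicate 2, -0.19) were lost without the library named.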

How the data were processed

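RNA-seq counts of 6 libraries were used, grouped by the labels, 3 sufficient and 3 deficient. The build was mm10 and the tools TopHat2 2.1.1, HTSeq 0.7.2 and DESeq2, per the submitters' processing notes, which give no roles. Strand setting and annotation release: not given in the sources used here. Reads of overlapping genes therefore cannot be told apart. The authors deposited raw counts per gene, whole numbers without normalization; rows with no gene symbol held 0.591% to 0.614% of counts. A second table holds, per the file headers, the authors' mean signal level, log2 fold change, its standard error and test score, and p-values with q-values. Those deposited log2 values are positive where sufficient was higher.

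Counts were tested with the quasi-likelihood test of edgeR 4.0.16 (R 4.3.3; robust, TMM, filterByExpr, Benjamini-Hochberg over all tested genes at 0.05), for all 6 libraries and for 4. The fits were also run on simulated counts with the same spread set for every gene and the labels taken as right. That run does not test the calls reported here. SEs follow from the fold change and the F value. CPM uses no TMM factor. The 95% intervals are from the edgeR fits and include the spread between libraries, and the 3-count limit covers counting error only. CPM per kb uses 1 GENCODE M21 transcript per gene, the principal one, and the longest where several ranked equally. Alternatives were other scaling, no count filter, DESeq2 1.42.0, a replicate block and leaving out each library. Members and lists were chosen with earlier results of these data known. Named were Trim28, members called in either fit, in each complex the highest and lowest tested level and the smallest p, the alternative forms with their partners, and up to 4 called genes per pathway list.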

Additional observations from a re-analysis of the deposited data

How the results depend on the processing

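With all 6 libraries 0 members were called under each scaling factor, without the count filter and with DESeq2; leaving out both replicates 3 gave 8, and leaving out single libraries gave 0 to 4, with 4 only without sufficient replicate 3. On the 4 libraries the 8 called members became 1 with DESeq2 (which tested 17899 genes), 12 without the count filter, and 4 to 8 without single libraries: 4 without sufficient replicate 1, 5 without sufficient replicate 2 or deficient replicate 2. The lone library is then assumed to vary like the other group. The cause was not tested. The replicate block gave 0 calls with all 6 libraries, where 0 of all genes passed and 7 members had an unadjusted p under 0.05, and 9 on the 4 libraries. Same-numbered libraries deviated with correlations of -0.365, -0.293 and -0.613 in all 6 and -0.0191 in the 4, so the numbers were not taken to pair samples. The median log2 fold change of members stayed between -0.009 and 0.048 with all 6 libraries and between -0.006 and 0.070 on the 4; no setting moved it from 0.006 or 0.048, the values reported, by as much as 1 SD between libraries (0.0586 and 0.0583). Atp5mpl lost its call only with DESeq2 (adjusted p = 0.0917); Cox8a lost it there (0.156) and without deficient replicate 1 (0.055); Cox5b with DESeq2 and without deficient replicate 2 (0.0583) or sufficient replicate 2 (0.14). Ndufv1, Uqcrc2, Atp5g3 and Cox7a2 lost it with DESeq2, with upper-quartile factors and without some single libraries. Among the genes named, signs changed only for values that did not pass. Atp5b with all 6 libraries went from 0.0038 to -0.011 with upper-quartile factors and to between -0.017 and 0.035 without single libraries. Over single libraries left out, all 6 gave -0.078 to 0.026 for Cox6b1, -0.0053 to 0.15 for Cox7b, -0.063 to 0.016 for Ndufa4, -0.15 to 0.053 for Ndufb2 and -0.056 to 0.0074 for Sdha, and the 4 gave -0.12 to 0.37 for Atp5g1, -0.064 to 0.0014 for Cox4i1, -0.12 to 0.043 for Ndufa4, -0.12 to 0.0076 for Sdha and -0.14 to 0.061 for Uqcrq. Depth leaves genes under 0.273 to 0.301 CPM unmeasured.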
